A study of Talpa occidentalis with 24 samples.

Results

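Fetal gonads of the mouse carry promoter marks in different places in the 2 sexes, and some stretches called promoter in one gonad are called Polycomb repression, poised enhancer or undefined in the other. These stretches are described here. They were taken from 2 chromatin state maps, 1 of the ovary and 1 of the testis, as the promoter segments of at least 400 bp on chromosomes 1 to 19 with at least 50% of their bases in those 3 states in the other gonad. The members were thus chosen by the state calls of both gonads inside the segment, and those calls are given as descriptions. The rule found 5581 of 37250 promoter segments, 3289 of 19106 in the ovary and 2292 of 18144 in the testis. Each is called a member below, "own" being the gonad in which it is a promoter and "other" the opposite one.

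The study compared gonads of the Iberian mole (Talpa occidentalis), whose females have ovotestes, with mouse gonads by ChIP-seq, in which antibodies to histone marks pull down the DNA that carries them. The protocol names antibodies against H3K4me3, H3K4me1, H3K27ac and H3K27me3 and whole gonads fixed in 1% formaldehyde, from mole young at postnatal day 7 and from mouse embryos at E13.5 (embryonic day 13.5). The 24 labelled libraries are all from wild-type moles, 8 per tissue, and are used only for a closing comparison. The mouse maps belong to no labelled library, so the strain, genotype, number of embryos and number of libraries behind them are not stated in the labels used here. Mouse libraries were not analysed here. With 1 map for each gonad, replicates cannot be compared, no test between gonads was run, and the read depth is unknown.

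At this stage the gonads have recently taken different paths: Sertoli cells of the testis enclose the germ cells in cords, while germ cells of the ovary begin to enter meiosis. H3K4me3 marks the promoters of genes that are active or ready to be, H3K4me1 marks enhancers, H3K27ac is added where these are active, and H3K27me3 is laid down by Polycomb complexes, which keep developmental genes silent. A bivalent promoter carries both an activating and a Polycomb mark, and a poised enhancer is in common usage one marked without H3K27ac. A whole gonad mixes germ cells with several kinds of somatic cell, so a state that differs between gonads can differ because a cell type is rarer or because its chromatin differs, and the maps cannot tell these apart. The defining genes of ovary and testis were not checked, because no mouse gene annotation or genome of the build of the files (mm9) was used here; members are therefore given by position, counted from 1, without gene names or sequence.

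The Polycomb repression state was the largest of the 3 states at a minority of the members. Of the 3289 ovary members, 1795 (54.6%, Wilson 95% interval 52.9 to 56.3) had more poised enhancer than Polycomb or undefined bases in the testis, 583 (17.7%, 16.5 to 19.1) had undefined as the largest of the 3 and 410 (12.5%, 11.4 to 13.6) Polycomb. The remaining 501 (15.2%) had 2 or 3 of the states in equal amounts and are called tied. Of the 2292 testis members, 1064 (46.4%, 44.4 to 48.5) were poised in the ovary, 703 (30.7%, 28.8 to 32.6) undefined, 208 (9.08%, 7.97 to 10.3) Polycomb and 317 (13.8%) tied. What marks the poised enhancer and undefined states hold is not given in the sources used here, so whether such members are repressed cannot be told. These intervals, like all that follow, cover the counting of segments only. They take in no variation among embryos, and neighbouring segments are not independent.

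The members were a smaller share of testis than of ovary promoters. The background share, which is the result of the rule itself, was 17.2% of ovary promoter segments (Wilson interval 16.7 to 17.8) and 12.6% of testis promoter segments (12.2 to 13.1), a ratio of 1.36 (1.30 to 1.43). It was higher for the ovary on 19 of 19 chromosomes, from 14.0% on chromosome 11 to 22.4% on chromosome 6, against 8.53% on chromosome 11 to 16.1% on chromosome 3 for the testis. By class, 9.39% of ovary promoters were poised in the testis, 3.05% undefined, 2.15% Polycomb and 2.62% tied. In the opposite direction 5.86% of testis promoters were poised in the ovary, 3.87% undefined, 1.15% Polycomb and 1.75% tied. The undefined class was thus the one in which the testis had the larger share. The 3 states covered 75.7% of the autosomes in the ovary and 78.5% in the testis.

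The difference between the directions was widest among short segments. Among segments of 400 bp, the shortest allowed, 1866 of 5277 ovary promoters (35.4%, 34.1 to 36.7) and 1200 of 4871 testis promoters (24.6%, 23.4 to 25.9) were members. Among segments of 1000 to 1400 bp these were 326 of 4747 (6.87%, 6.18 to 7.62) and 285 of 4767 (5.98%, 5.34 to 6.69), and among those of at least 2200 bp 28 of 962 (2.91%, 2.02 to 4.17) and 35 of 947 (3.70%, 2.67 to 5.10). Over all segments of at least 1000 bp there were 441 ovary and 391 testis members, with a ratio of shares of 1.10 and an interval of 0.965 to 1.26, which includes 1. The median member was 400 bp long in both gonads and the median of the other promoter segments 800 bp.

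**Figure D1:**
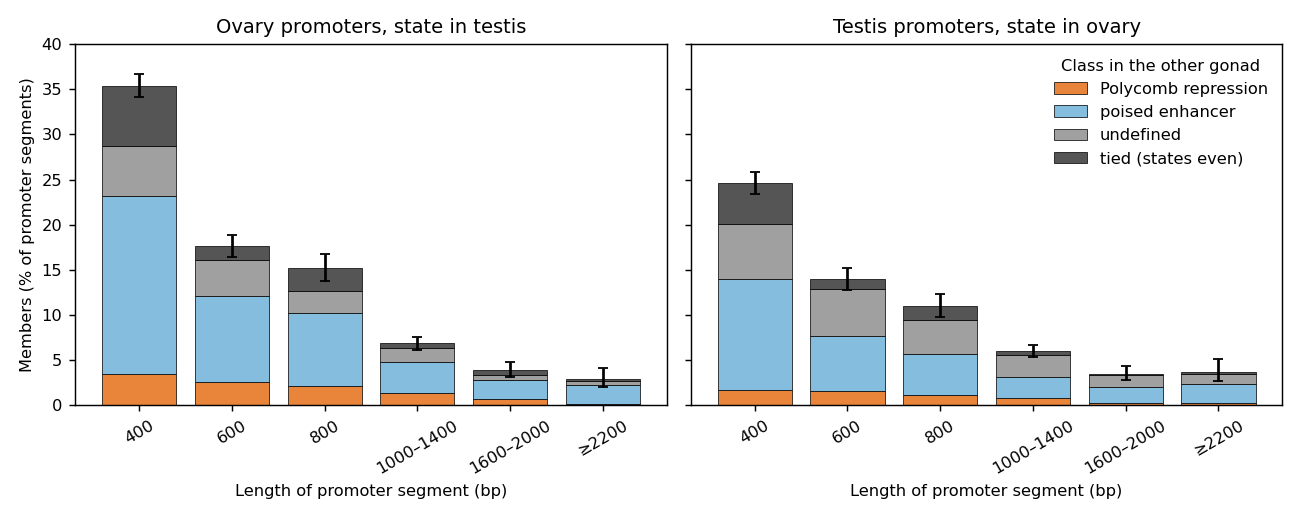
Members as a percent of promoter segments, by segment length in bp, for ovary promoters (left) and testis promoters (right); bars are stacked by the class in the other gonad, error bars are Wilson 95% intervals of the total, and the share declines from 35.4% and 24.6% at 400 bp to 2.91% and 3.70% at 2200 bp or more, where the 2 gonads have overlapping intervals.

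A segment of 400 bp is 2 bins of the map, the unit of 200 bp in which states were called. Of the ovary members of that length, 583 (31.2%) passed with 1 bin of the 2, and 1283 with both. The bin that did not count was active enhancer in the testis in 351 of the 583, bivalent promoter in 142 and promoter in 88. Of the testis members of that length, 350 (29.2%) passed with 1 bin, the other bin being active enhancer in the ovary in 265, promoter in 60 and bivalent promoter in 16. At all lengths, 2101 ovary members (63.9%) and 1486 testis members (64.8%) lay wholly in the 3 states. At the limit of the rule, 748 ovary and 467 testis members had exactly 50% of their bases in the 3 states. The nearest segments outside reached 46.2% in the ovary and 47.6% in the testis.

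The states found at members were not in the proportions of the genome. Of the member bases in the 3 states, 54.9% were poised for ovary promoters and 46.1% for testis promoters, while poised enhancer made up 22.6% of the 3 states on the autosomes of the testis and 20.7% of those of the ovary. Polycomb repression made up 20.2% and 16.3% at members against 32.51% and 34.97% on the autosomes, and undefined 24.9% and 37.7% against 44.9% and 44.4%. These are descriptions of the chosen segments, without a test. The autosomes as a whole also differ from the surroundings of promoters. Within 2 kb of ovary promoters that are not members, the testis map had 34.1% poised, 5.31% Polycomb and 9.68% undefined. Within 2 kb of testis promoters that are not members, the ovary map had 16.0%, 4.85% and 9.61%. Poised enhancer was thus the largest of the 3 states near other promoters too, so the contrast with the autosomes is not particular to members. In the mouse maps the Polycomb state is cut into many short pieces, 1186205 on the autosomes of the ovary and 1229515 on those of the testis, with a median of 400 bp in both. The longest Polycomb piece overlapping each Polycomb-class member had a median of 600 bp in the testis (for ovary promoters) and 800 bp in the ovary (for testis promoters). It was at least 3 kb long at 15 of 410 (3.66%) and 9 of 208 (4.33%) members. Of all Polycomb pieces on the autosomes, 0.661% in the testis and 0.918% in the ovary were that long, but a longer piece overlaps more segments, so these shares are not on the same footing.

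Most members stood away from the promoters of the other gonad. The gap from an ovary member to the nearest testis promoter segment of any length had a median of 17800 bp and quartiles of 3600 and 53600 bp, and that from a testis member to the nearest ovary promoter a median of 21400 bp, with quartiles of 4550 and 70000 bp. A gap of at most 2 kb was found at 700 ovary members (21.3%) and 450 testis members (19.6%), and of more than 100 kb at 471 (14.3%) and 435 (18.98%). Among members of 400 bp, a gap of at most 2 kb was found at 19.7% in the ovary and 17.7% in the testis. Among the other promoter segments of 400 bp it was found at 66.8% and 63.8%. Most of the latter had a gap of 0 (shared or touching bases), at 56.7% and 55.1% of those segments. A gap of 0 was found at 6.59% and 8.0% of members of 400 bp. That contrast follows largely from the rule, which leaves at most 50% of a member to any promoter state.

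The classes differed in this gap, and not in the same order in the 2 directions. Among ovary promoters the poised class was nearest to a promoter of the other gonad, with 471 of 1795 (26.2%) within 2 kb, against 84 of 410 (20.5%) in the Polycomb class and 62 of 583 (10.6%) in the undefined class. Among testis promoters the undefined class was nearest, with 192 of 703 (27.3%), against 193 of 1064 (18.1%) in the poised class and 19 of 208 (9.13%) in the Polycomb class. These counts include members that share or touch bases with a promoter of the other gonad, an overlap that the rule limits. Such members were 234 of the 471 ovary poised, 31 of the 84 Polycomb and 30 of the 62 undefined ones. In the testis they were 122 of the 192 undefined, 111 of the 193 poised and 4 of the 19 Polycomb ones. Whether the order of the classes holds without them was not tested. Testis promoters of the Polycomb class were the most isolated group, with a median gap of 42400 bp and 62 of 208 (29.8%) more than 100 kb from an ovary promoter. They were also the farthest from promoters of their own gonad, with a median gap of 19400 bp, against 7000 bp for testis promoters that are not members. These are values of the classes in 1 map each, and the differences between classes were not tested.

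**Figure D2:**
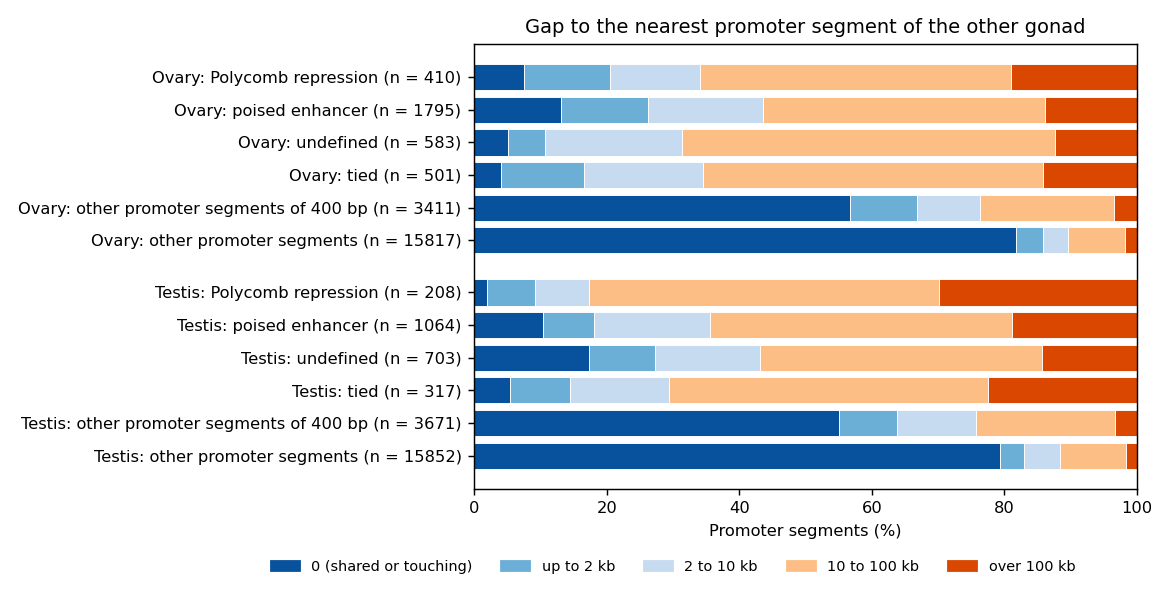
Percent of promoter segments by the gap to the nearest promoter segment of the other gonad, for each class of members and for the promoter segments that are not members, of 400 bp or of any length. Members within 2 kb range from 9.13% (testis promoters of the Polycomb class) to 27.3% (testis promoters of the undefined class), and the other segments of 400 bp reach 66.8% and 63.8%. These shares include gaps of 0, found at 56.7% (ovary) and 55.1% (testis) of the other segments of 400 bp, which the rule restricts among members.

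Around the members, the active enhancer state was compared between the gonads in the 10 kb on each side, bases that the rule did not use for that member. Of the members, 484 in the ovary and 341 in the testis lay within 10 kb of another of the same direction, so some flanks overlap. The ovary map holds more of this state, 12.8% of the autosomes against 10.3% in the testis, which affects both directions. Around ovary members it covered on average 31.8% in the ovary and 18.5% in the testis, and it was higher in the ovary at 2652 of 3289 (80.6%). Around the other ovary promoters it covered 40.9% and 28.7%, and was higher in the ovary at 81.3%, so the gonads differed by 13.3 percentage points around members and by 12.3 around the rest. Around testis members it covered 23.4% in the testis and 19.2% in the ovary, and was higher in the testis at 1415 of 2292 (61.7%). Around the other testis promoters the ovary had more of it, with 31.6% in the testis and 41.2% in the ovary, and the testis was higher at 22.4%.

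Put on the scale of each map, by dividing by the autosomal coverage of the state in that gonad, the flanks of ovary members held 2.49 times the autosomal level in the ovary and 1.81 times in the testis. Those of testis members held 2.28 times in the testis and 1.5001 times in the ovary. The other promoters had 3.20 and 2.79 times (ovary promoters) and 3.08 and 3.22 times (testis promoters), in the own and the other gonad. Members thus had less active enhancer state around them than other promoters in either gonad, and a wider spread between the gonads on this scale. The rule bears on this, since a promoter with most of its bases in active enhancer state in the other gonad cannot be a member. How far the values in the flanks follow from that was not tested. Nearer the segment, within 2 kb, coverage was 43.0% in the own and 18.2% in the other gonad for ovary members and 35.8% and 19.3% for testis members. Over 50 kb it was 27.2% and 18.3% for ovary members, but for testis members the order turned, with 18.9% in the testis and 19.5% in the ovary. After scaling both maps to the same autosomal total, the testis members again had more in their own gonad over 50 kb, by 3.63 percentage points.

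The Polycomb class had the least active surroundings. Within 2 kb of the 410 ovary promoters of this class the active enhancer state covered 27.2% in the ovary and 7.598% in the testis, and no base of it was called in the testis at 61.7% of them. Within 2 kb of the 208 testis promoters it covered 26.9% in the testis and 6.08% in the ovary, with none in the ovary at 69.2%. Over 10 kb the Polycomb state covered 20.7% in the ovary and 25.6% in the testis around the ovary promoters of this class, and was higher in the testis at 263 of 410 (64.1%). Around the testis promoters it covered 21.2% in the testis and 33.2% in the ovary, and was higher in the ovary at 165 of 208 (79.3%). The other promoters had 11.4% and 11.97% (ovary promoters) and 11.1% and 10.9% (testis promoters) in the own and the other gonad, less than the Polycomb class in either gonad. The poised class lay between them, with 15.6% and 16.98% around ovary promoters and 15.6% and 22.4% around testis promoters. So did the tied members, with 15.4% and 18.6%, and 18.9% and 24.6%. The undefined class had 10.2% and 14.1% around ovary promoters, the first value being below the 11.4% of the other promoters. Around testis promoters the undefined class had 14.8% and 17.2%, also in between.

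The poised and undefined classes sat in more active surroundings. Around the 1795 ovary promoters that are poised in the testis the active enhancer state covered 32.7% of the 10 kb flanks in the ovary and 19.996% in the testis. Around the 583 undefined ones it covered 37.6% and 20.2%, and was higher in the ovary at 520 (89.2%). Around the 1064 testis promoters that are poised in the ovary it covered 24.7% in the testis and 19.03% in the ovary. Around the 703 undefined ones it covered 24.4% in the testis and 24.0% in the ovary, and was higher in the testis at 358 (50.9%). On the scale of each map these were 2.38 times the autosomal level in the testis and 1.88 times in the ovary, so the near equality holds for unscaled coverage only. The undefined class had the widest gap between gonads of the classes of ovary promoters and the narrowest of those of testis promoters, on both scales.

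**Figure D3:**
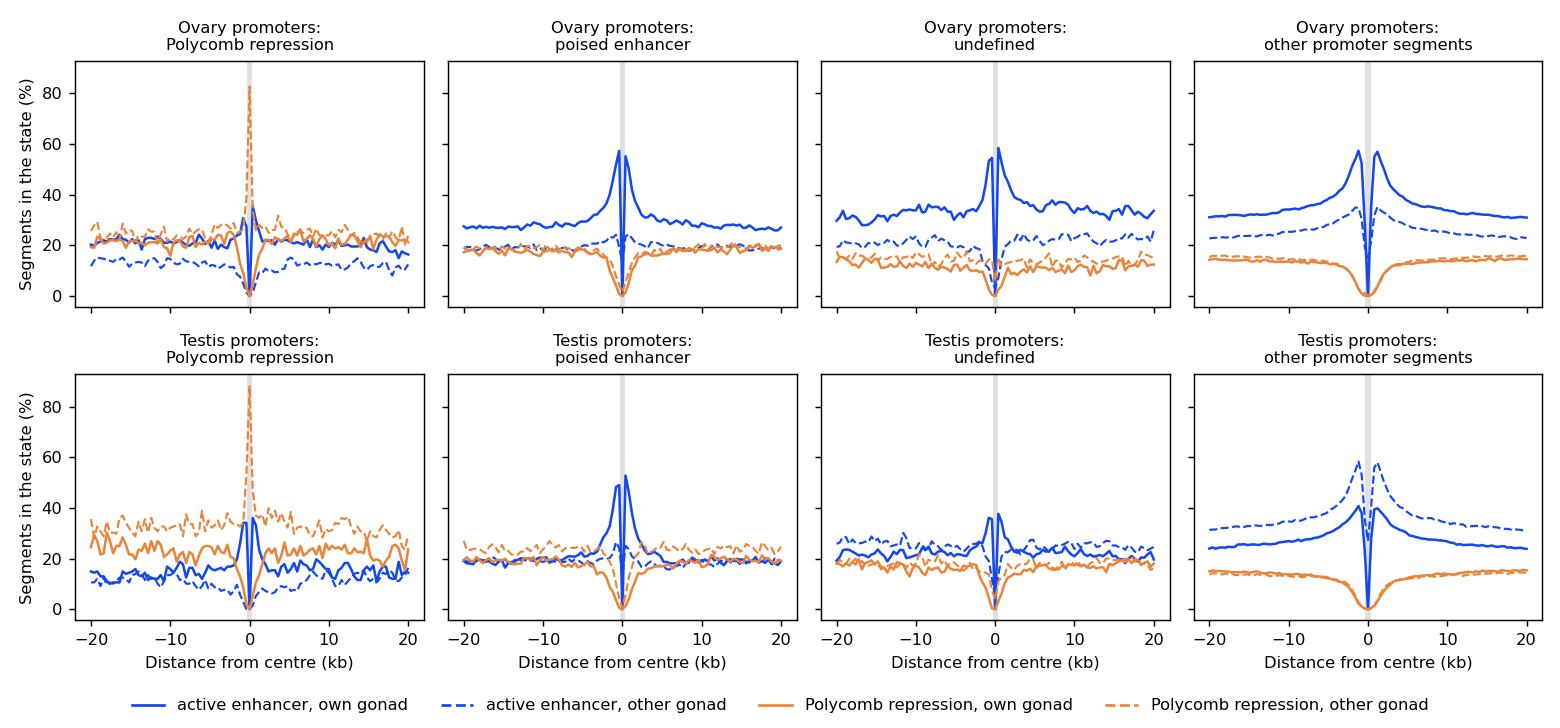
Percent of segments in the active enhancer state (blue) and the Polycomb repression state (orange) by distance in kb from the segment centre, in the own gonad (solid) and the other gonad (dashed), for 3 classes of members and for promoter segments that are not members; the grey band marks the central 400 bp. Over the 10 kb flanks of testis promoters of the Polycomb class the orange lines average 33.2% in the ovary and 21.2% in the testis; in the panels of other promoter segments they lie together.

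The borders of a member in its own gonad also differed by class. Of the promoters that are not members, 61.7% in the ovary and 35.5% in the testis had active enhancer state on both sides. Among those of 400 bp, the median length of members, the shares were 54.1% and 45.9%, so the comparison depends on length. Members of 400 bp were close to these, with 52.2% in the ovary and 44.5% in the testis. The values by class take in all lengths. Among ovary members active enhancer state was on both sides of 115 of 410 (28.0%) in the Polycomb class, 1037 of 1795 (57.8%) in the poised class and 334 of 583 (57.3%) in the undefined class. Among testis members it was on both sides of 64 of 208 (30.8%), 559 of 1064 (52.5%) and 235 of 703 (33.4%) in the same order. Bivalent promoter state touched at least 1 side of 23.4% of ovary members of the Polycomb class and of 0.515% of the undefined class, against 4.18% of the other ovary promoters. In the testis map it touched 18.3% of members of the Polycomb class, 17.5% of the undefined class and 30.4% of the other promoters. The ovary map has longer bivalent segments (median 1000 bp, 9115 on the autosomes) than the testis map (400 bp, 13954), and the part of this in these shares was not tested.

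The longest members of each class are described one by one, and are not typical, since the median member was 400 bp long. They were named by length, as the 5 longest per class and direction. The longest ovary promoter of the Polycomb class lay at chr5:120791401-120796600, over 26 bins. In the testis 18 of these bins were Polycomb and 8 undefined, and the nearest testis promoter was 214200 bp away. Its 10 kb flanks were mostly Polycomb in both gonads, 59% in the ovary and 57% in the testis, and almost without active enhancer, 2% and 1%. The rest of the flanks was mainly poised enhancer in the ovary, 29%, and undefined in the testis, 31%. It was thus a promoter call in surroundings with more Polycomb than any other state in both gonads. The promoter at chr4:145147401-145150000 had 8 of 13 bins Polycomb and 4 bivalent in the testis, with Polycomb over 36% of its flanks in the ovary and 57% in the testis. At chr8:94321601-94323600, 6 of 10 bins were Polycomb and 4 bivalent in the testis, and its flanks were bivalent over 49% in the ovary and 29% in the testis. Those at chr11:66221201-66223200 and chr19:25310601-25312600 had 5 of 10 bins Polycomb each. The flanks of the latter were active enhancer over 57% in the ovary and 51% in the testis, the highest values among the 5 named here.

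Of the 5 longest ovary promoters of the poised class, 4 had flanks that were mostly active enhancer in the ovary. The longest, at chr14:61660801-61666000, had 15 of 26 bins poised, 5 bivalent, 3 active enhancer and 2 promoter in the testis. Active enhancer covered 61% of its flanks in the ovary and 4% in the testis, the widest difference among the named regions. At chr3:121670001-121674000 the share was 80% and 40%, with 12 of 20 bins poised and 8 promoter in the testis. At chr3:94588001-94591200 it was 84% and 34%, with 9 of 16 bins poised. At chr1:193149401-193153000 it was 58% and 30%, with 10 of 18 bins poised, and at chr10:91625001-91628000 18% and 0%, with 8 of 15 bins poised and 6 bivalent. The first 4 of these 5 share bases with, or touch, a testis promoter segment, and each held 2 to 8 promoter bins there.

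The longest ovary promoter of the undefined class, at chr14:58274801-58277400, had 8 of 13 bins undefined and 5 Polycomb in the testis, with flanks active over 64% in the ovary and 29% in the testis. At chr8:97353201-97355600 8 of 12 bins were undefined, 3 poised and 1 Polycomb, and at chr2:6247801-6250000 8 of 11 were undefined, 2 active enhancer and 1 Polycomb. Their flanks were active over 57% and 86% in the ovary and 26% and 45% in the testis. Those at chr8:91473001-91475200 and chr10:86370801-86372800 had little active enhancer in the ovary, 4% and 7%, and none in the testis. They stood 251400 and 62200 bp from the nearest testis promoter.

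Among testis promoters of the Polycomb class the longest lay at chr2:74973601-74977200, with 7 of 18 bins Polycomb, 6 poised, 4 bivalent and 1 undefined in the ovary. Active enhancer covered 32% of its flanks in the testis and 0% in the ovary. At chr4:122912401-122914200, 8 of 9 bins were Polycomb in the ovary and active enhancer covered 44% of the flanks in the testis and 4% in the ovary. That member was the purest Polycomb case of the 10 named in this class over both directions. At chr10:83305201-83308400, 7 of 16 bins were Polycomb and 6 undefined, but the flanks were active to a like extent, 43% in the testis and 45% in the ovary. At chr15:7347001-7348800 the Polycomb state covered 8% of the flanks in the testis and 64% in the ovary, and at chr1:174430401-174432000 18% and 44%. Active enhancer was at 12% and 11% in the testis at these positions, and at 0% and 1% in the ovary.

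The longest testis promoter of the poised class, at chr13:98010201-98014200, had 10 of 20 bins poised and 4 promoter in the ovary, and its flanks were active over 63% in the testis and 40% in the ovary. At chr10:126776001-126779400, 12 of 17 bins were poised and 3 Polycomb, with Polycomb over 25% of the flanks in the testis and 58% in the ovary. At chr12:37040601-37043600 all 15 bins were poised in the ovary, with flanks active over 15% in the testis and 2% in the ovary. The promoter at chr3:81946801-81950000 had 8 of 16 bins poised and 6 promoter, and that at chr9:11105601-11108800 had 6 poised, 5 active enhancer and 4 undefined bins of 16. The undefined class was led by chr14:66244801-66250200, with 17 of 27 bins undefined in the ovary, and chr1:92785401-92790000, with 11 of 23. Flanks of these were active over 13% and 47% in the testis and 3% and 29% in the ovary. At chr12:114663601-114667200 9 of 18 bins were undefined and 8 Polycomb. At chr6:134876401-134879800 and chr14:100682201-100685600 6 of 17 bins were undefined and 5 promoter, and active enhancer was equal in the gonads, 8% and 23%.

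Over the 15 named ovary promoters, active enhancer in the flanks was lower in the testis at 13. It was lower there at 80.6% of all ovary members and at 81.3% of the other ovary promoters, so this count is not particular to the named regions. Over the 15 named testis promoters active enhancer was lower in the ovary at 11. The share was 61.7% of all testis members and 22.4% of the other testis promoters. The plot of states around the longest members shows 1 member of each class and direction.

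**Figure D4:**
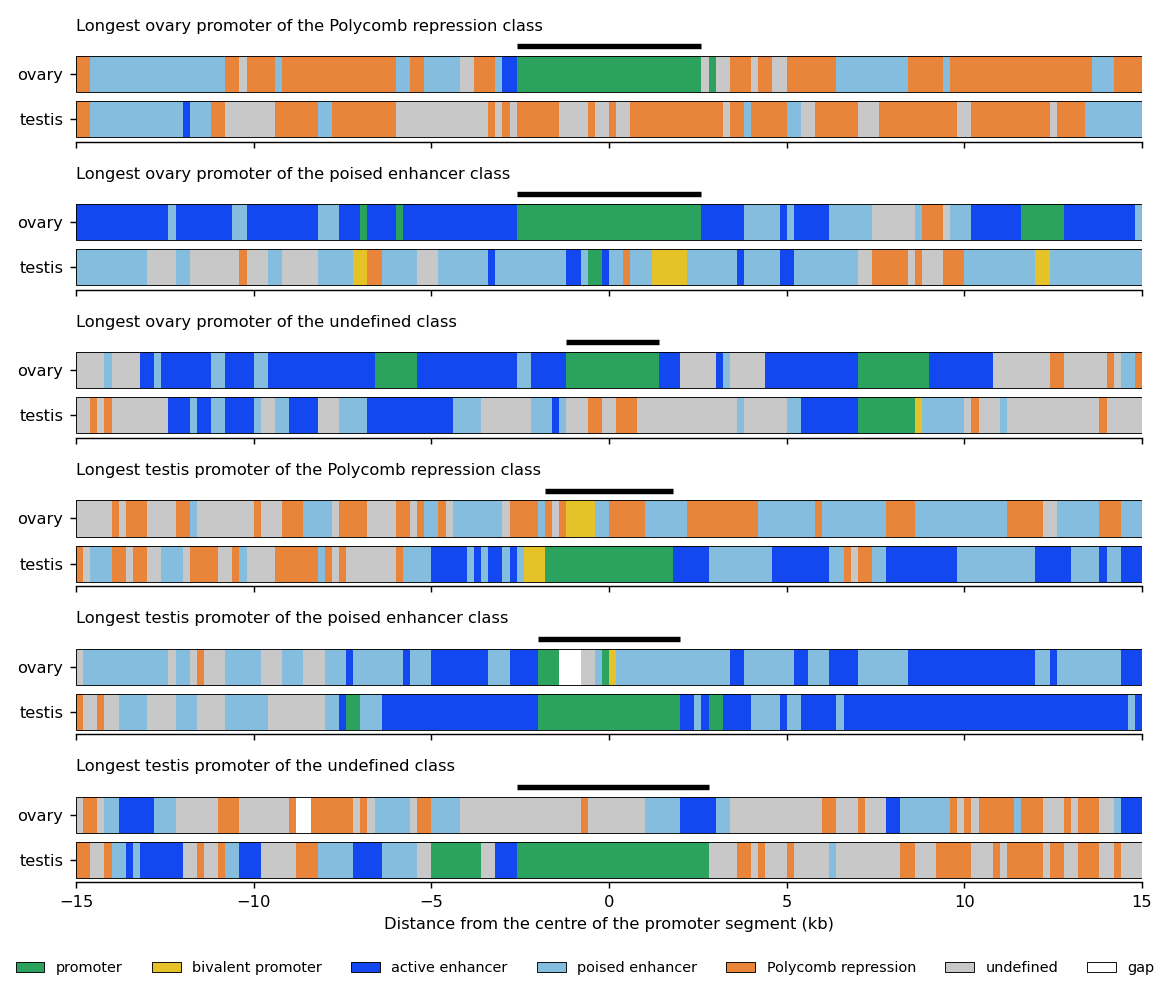
Chromatin states in 200 bp bins around the longest member of each class and direction, by distance in kb from its centre, in the ovary (upper bar) and the testis (lower bar) of each panel; the black line marks the promoter segment. In the top panel the promoter of 26 bins in the ovary is 18 Polycomb and 8 undefined bins in the testis.

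Members were mostly single. Joining members of one direction at most 10 kb apart gave 3030 loci in the ovary, 2805 of them with 1 member, and 2115 in the testis, 1951 of them with 1. Only 5 ovary loci and 1 testis locus held 4 or more. The largest lay at chr1:173480001-173499200, where 7 ovary members, 5 poised and 2 Polycomb in the testis, added up to 6000 bp. Promoter state covered 46.9% of this locus in the ovary and 21.9% in the testis, while active enhancer was alike, 11.5% and 10.4%. At chr1:90162201-90177600, 6 ovary members lay within active enhancer state that covered 54.5% in the ovary and 18.2% in the testis. At chr8:94152001-94166800, 5 members lay where active enhancer covered 56.8% in the ovary and 1.35% in the testis, and no testis promoter was called. The testis locus of 4 members, at chr6:137083601-137094600, was active over 47.3% in the testis and 12.7% in the ovary, with Polycomb over 32.7% in the ovary and none in the testis. The loci were ranked by their number of members, so these values are descriptions.

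The same rule was applied to the mole, on 19 scaffolds of at least 1 Mb, between the ovarian part of the ovotestis and the testis. There 1323 of 15739 ovarian promoter segments (8.41%, Wilson interval 7.98 to 8.85) and 667 of 13603 testis segments (4.90%, 4.55 to 5.28) were members. The poised class was again the most frequent, with 55.2% and 57.3% of members, and the Polycomb class held 24.4% and 17.5%. Tied members were 2.65% and 4.35%, against 15.2% and 13.8% in the mouse, where the counts also leave out chromosome X. The class shares of the 2 species are therefore not on the same footing. Between the 2 parts of the ovotestis, 1608 of 15739 promoter segments of the ovarian part (10.2%) and 567 of 13511 of the testicular part (4.20%) met the rule. The mole gonads were taken after birth and the mouse gonads before it, and the maps were made separately, so the difference in share between the species cannot be told apart from stage, assembly or state calling.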

How the data were processed

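Mouse chromatin states were read from 2 deposited segmentations. Per the file headers, the authors made them with EpiCSeg, and STAR 2.6.1d and the build mm9 appear in the submitters' processing notes. Values are state names, 1 of 7 per stretch of 200 bp bins, with no deposited read count, so depth is unknown. How states were named and replicates combined is not stated in the labels or headers. Segments, overlaps, flanks and gaps were computed in Python 3.11.15 with numpy 2.4.6 and pandas 2.3.3, after the code was tested on simulated data, and Wilson intervals with scipy 1.17.1. The class is the one of the 3 states with most bases, and even splits are tied. A gap of 0 means shared or touching bases. Regions were named as the 5 longest per class and direction, and loci with most members were added after their values were seen. Members, lists and tests were chosen with earlier results of these data known. Gene lists and gene starts were not used, since the files do not pair mouse regions with genes. Mole maps were used for 1 comparison, by the same rule. Length, overlap, joining, chromosome X, isolation, class rule and flank width were varied.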

Additional observations from a re-analysis of the deposited data

How the results depend on the processing

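No paired analysis was possible because each mouse gonad has 1 map and no labelled replicate. Of the values below, 1 changed sign, that of testis members over 50 kb. Counts of ovary and testis members were 6756 and 4232 with no minimum length, 1423 and 1092 from 600 bp, 441 and 391 from 1000 bp, and 2101 and 1486 when all bases had to be in the 3 states. The ratio of shares was 1.49 with no minimum length, 1.25 from 600 bp, 1.10 from 1000 bp and 1.44 at 400 bp alone, the last chosen after seeing the data. Class counts depended on the rule for mixed segments. Where 1 state had to hold at least 50%, with even splits counted in both, the Polycomb class had 658 ovary and 354 testis members, and with at least 75% it had 190 and 131. At 75% the poised class had 870 and 532 and the undefined class of the testis 400. Counting ties in each class, chosen after seeing the data, gave the Polycomb class 759 and 404 and the undefined class of the ovary 925. The excess of active enhancer in the own gonad over 10 kb, 13.3 points for ovary and 4.17 for testis members, was 24.8 and 16.4 over 2 kb and 8.87 and -0.643 over 50 kb. After scaling both maps to the same autosomal total, an added setting, it was 7.83 and 8.96 over 10 kb and 3.91 and 3.63 over 50 kb. At 400 bp alone it was 12.7 and 3.30. The median gap to a promoter of the other gonad was 26600 and 35200 bp when only segments of at least 400 bp counted, and 17900 and 20700 bp for members of 400 bp. The alternatives for distance to a gene start were not run, because no mm9 annotation was used here. Depth limits every value to an unknown extent.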

Other observations

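On chromosome X, which the counts above leave out, 151 of 613 ovary promoter segments (24.6%, Wilson 95% interval 21.4 to 28.2) and 83 of 526 testis promoter segments (15.8%, 12.9 to 19.1) met the rule. The Polycomb class was larger there than on any single autosome: it held 61 of the 151 ovary members (40.4%) and 22 of the 83 testis members (26.5%), against 5.13% to 16.9% of ovary members and 3.50% to 14.1% of testis members on chromosomes 1 to 19. The Polycomb state covered 50.8% of the chromosome in the ovary and 31.4% in the testis. Thus the ovary had the wider Polycomb coverage of chromosome X, and also the larger share of members that were Polycomb in the other gonad. Active enhancer covered 0.886% of chromosome X in the ovary and 1.47% in the testis. On single chromosomes from 1 to 19 it covered 9.92% to 18.6% in the ovary and 8.14% to 14.1% in the testis. The calls on chromosome X thus differed from those on the autosomes in both maps. The sexes also differ in their number of X chromosomes, and any effect of this on the calls was not tested. The values for chromosome X are therefore descriptions of the calls only.

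An ovary member lay within 2 kb of a testis member at 36 of 3289 (1.09%), and within 10 kb at 110 (3.34%). The rule bears on these counts: 21.3% of ovary members lay within 2 kb of any testis promoter segment, and 12.6% of testis promoter segments of at least 400 bp were members. The pair with the greatest combined length was an ovary promoter at chr2:26441801-26442800, poised in the testis, next to a testis promoter at chr2:26439401-26441400, undefined in the ovary, 400 bp away. At chr3:32716801-32717600 and chr4:99769201-99770000 an ovary member shared bases with a testis member, at chr3:32716001-32717200 and chr4:99768401-99769600, so the promoter call covered different, overlapping stretches in the 2 gonads.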
